A study of Mus musculus with 4 samples.

Results

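Annexins and the S100 and ferlin proteins that work with them at injured membranes were followed here in satellite cells of dystrophic and healthy mice. The 10 members were chosen by gene symbol, *Anxa1*, *Anxa2*, *Anxa4*, *Anxa5*, *Anxa6*, *Anxa7*, *Anxa11*, *Dysf*, *S100a10* and *S100a11*, of 27998 genes in the count tables, and each symbol matched 1 row. Their unique molecular identifiers (UMIs, 1 count per captured transcript molecule) were summed in 4 10X Genomics single-cell libraries, 1 per strain: C57/Bl10ScsSn (B10, 15 weeks old), C57BL/10ScSn-Dmdmdx (*mdx*, 11 weeks), DBA/2 (DBA, 13 weeks) and D2.B10-Dmdmdx (D2-*mdx*, 14 weeks). The *mdx* allele of the dystrophin gene is carried by both dystrophic strains and by neither control. Each library pooled the hindlimb muscles of 2 male mice, and its cells were sorted as ITGA7+ and VCAM+ and negative for CD11b, SCA1, CD45 and CD31. With 1 library per strain there is no replicate and no test: strain, age, pool and library cannot be told apart, and each 95% interval below covers counting error only.

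Annexins are cytosolic proteins that bind acidic phospholipids when calcium rises, as it does where a plasma membrane is torn. Annexin A2 forms a tetramer with S100A10, and annexin A1 binds S100A11 in the same manner. Dysferlin is a calcium-binding membrane protein of vesicles and sarcolemma that takes part in resealing muscle fibres, and its loss causes a muscular dystrophy. Annexin A6 forms a cap on the wound, and a splice variant of *Anxa6* in the DBA background, which gives a truncated protein, is a known modifier of muscular dystrophy. Reads from transcript 3′ ends cannot tell such splice forms apart, so every *Anxa6* value below is a sum over its forms.

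After filtering, 4581, 6313, 3279 and 5756 cells remained in B10, *mdx*, DBA and D2-*mdx*, of which 4418, 4816, 2700 and 4180 were myogenic with 30126637 to 40341259 UMIs per library. Levels are UMI counts scaled to an equal total (CPM) over the summed cells of a library or class, a unit that compares 1 gene between samples and not 1 gene with another. Pairs of libraries shared 3 to 8 cell barcodes. Of the genes of the sort, *Itga7* was at 62.4 to 82.7 and *Vcam1* at 353 to 578 CPM in myogenic cells, and *Pecam1*, *Ptprc*, *Itgam* and *Ly6a* were at 0 to 8.67 CPM. Clustering gave 8 myogenic clusters, named "like" a class by marker lists that hold no member: 4 of muscle stem cells (MuSC-like clusters 0, 1, 5 and 6), and 1 each of DMD-enriched-like, cycling progenitor-like, differentiating myocyte-like and immunomyoblast-like cells. MuSC-like clusters were led by *1200007C13Rik*, *Cxcl1* and *Sat1* (cluster 0), *Gm3336*, *Hbb-bs* and *Neu1* (1), *Msmo1*, *Idi1* and *Hmgcs1* (5), and *Dlk1*, *Hhip* and *Car3* (6). *Hbb-bs*, a haemoglobin gene, had a UMI in 11.1% of cluster 1 and in 11.1 to 23.5% of every myogenic cluster. Leading genes of the DMD-enriched-like cluster were *Postn*, *Gper1* and *Col1a1*. Clusters were rebuilt from the counts, and 5 of the 10 members were among the genes used to cluster.

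RNA of *Dmd*, the dystrophin gene that carries the *mdx* mutation, was lower in both dystrophic libraries, with 119.5 in *mdx* against 324 in B10 and 94.6 in D2-*mdx* against 287 in DBA in CPM over myogenic cells. The ratio of *mdx* over B10 was -1.44 (-1.49 to -1.39) and that of D2-*mdx* over DBA -1.60 (-1.66 to -1.54) on the log2 scale.

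Annexin A2 and its partner S100A10 were both at higher RNA levels in the dystrophic libraries. *Anxa2* (chr9:69453620-69491795, plus strand, GRCm38) stood at 621 CPM (613 to 628) in *mdx* against 276 CPM (271 to 281) in B10, and at 861 CPM (852 to 871) in D2-*mdx* against 311 CPM (304 to 317) in DBA. Both dystrophic values lay above both controls, and no pair of the 4 intervals overlapped. On the log2 scale *mdx* over B10 was 1.17 (1.14 to 1.20), a fold of 2.25, and D2-*mdx* over DBA was 1.47 (1.44 to 1.505), a fold of 2.77. *S100a10* (chr3:93555080-93564643, plus strand) stood at 818 CPM (809 to 826) in *mdx* against 370.4 CPM (365 to 376) in B10, and at 796 CPM (787 to 806) in D2-*mdx* against 212 CPM (206 to 217) in DBA. The 2 dystrophic libraries were close to each other and far above DBA, the lowest of the 4. The log2 ratio of *mdx* over B10 was 1.14 (1.11 to 1.17), and that of D2-*mdx* over DBA was 1.91 (1.87 to 1.95), folds of 2.21 and 3.76.

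Annexin A1 and its partner S100A11 were also higher in both dystrophic libraries than in both controls, with larger ratios than the first pair in each comparison. *Anxa1* (chr19:20373428-20390944, minus strand), whose protein also acts outside the cell as an anti-inflammatory ligand of formyl peptide receptors, stood at 275 CPM (270.4 to 281) in *mdx* against 69.4 CPM (66.9 to 72.1) in B10, and at 348 CPM (342 to 355) in D2-*mdx* against 60.1 CPM (57.4 to 62.9) in DBA. Controls were near each other and the dystrophic libraries several times above them. Its log2 ratio of *mdx* over B10 was 1.99 (1.93 to 2.05), and that of D2-*mdx* over DBA was 2.54 (2.46 to 2.61), folds of 3.97 and 5.80. *S100a11* (chr3:93520488-93526287, plus strand, on the same chromosome and strand as *S100a10*) stood at 364 CPM (358 to 370.1) in *mdx* against 131 CPM (128 to 135) in B10, and at 394 CPM (388 to 401) in D2-*mdx* against 88.1 CPM (84.8 to 91.5) in DBA. Its log2 ratio of *mdx* over B10 was 1.47 (1.42 to 1.52), and that of D2-*mdx* over DBA was 2.16 (2.10 to 2.22). The annotation (GENCODE M21) places a long non-coding gene across *Anxa1* and an antisense gene across *Anxa2* on the opposite strand, and these had at most 0.198 CPM in any library's myogenic cells. A processed pseudogene of *S100a11* was not a row of the count tables, and reads from it could not be told apart from those of the gene.

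**Figure D1:**
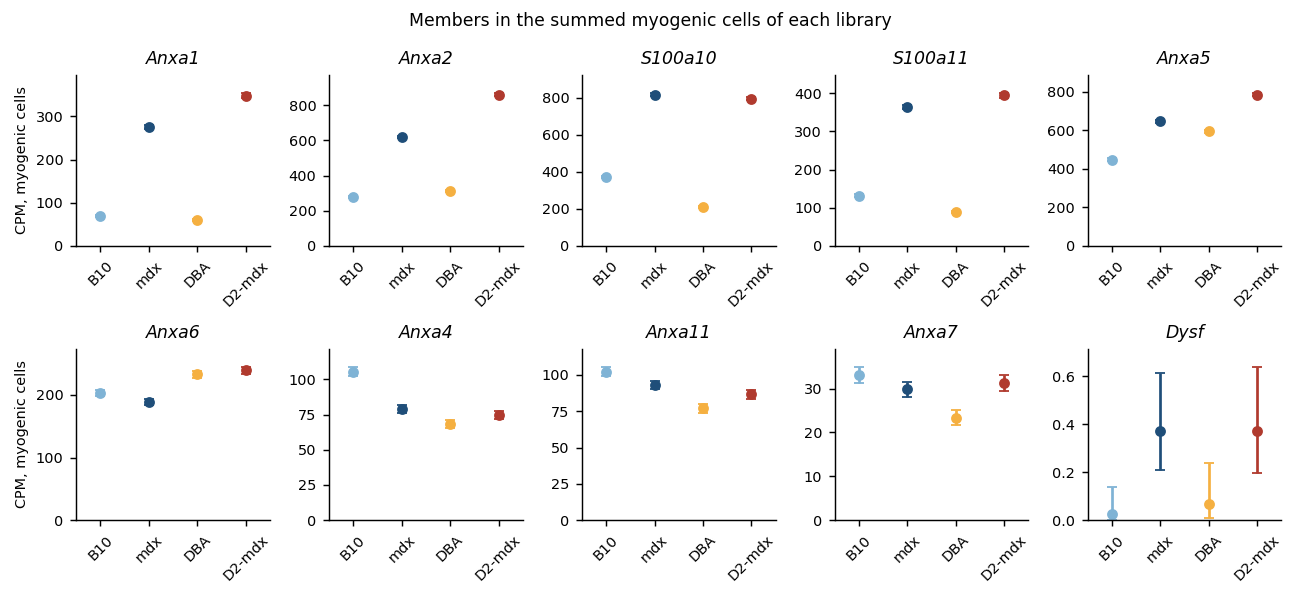
Level of each member in CPM (vertical axes, from 0, 1 scale per gene) in the summed myogenic cells of the 4 libraries, with 95% counting intervals as bars. *Anxa1*, *Anxa2*, *S100a10* and *S100a11* were higher in both dystrophic libraries than in both controls, and *Dysf* stayed below 1 CPM.

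RefSeq windows (GRCm38.p6, 250 bases before the RefSeq start) were at hand for 8 of the 10 members, and *Anxa6* and *S100a10* had no entry. Shown are those of *Anxa2* and *S100a11*, since both genes passed 2-fold in both disease comparisons and both windows hold TGANTCA, the site bound by AP-1 (Fos and Jun) dimers, which is its own reverse complement. Each is given on its own strand up to the first base that GENCODE annotates as exon, with capitals for TGANTCA and for GGGCGG, the GC box, on either strand.
*Anxa2*, chr9:69453433-69453619, plus strand: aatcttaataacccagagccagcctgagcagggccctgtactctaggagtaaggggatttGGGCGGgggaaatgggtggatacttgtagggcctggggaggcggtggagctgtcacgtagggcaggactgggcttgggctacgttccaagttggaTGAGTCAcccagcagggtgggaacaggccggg
*S100a11*, chr3:93520246-93520487, plus strand: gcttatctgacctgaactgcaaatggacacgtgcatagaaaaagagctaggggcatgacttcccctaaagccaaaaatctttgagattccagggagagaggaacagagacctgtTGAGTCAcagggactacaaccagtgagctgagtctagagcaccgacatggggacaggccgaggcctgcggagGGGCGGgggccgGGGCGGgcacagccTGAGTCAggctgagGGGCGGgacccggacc

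The letters TGANTCA were found in 1856 of 27025 windows of the same length (6.87%), once in that of *Anxa2* and 2 times in that of *S100a11*. They were not found in the windows of *Anxa1*, *Anxa4*, *Anxa5*, *Anxa7*, *Anxa11* or *Dysf*. GGGCGG was in 32.9% of all windows and in those of *Anxa2*, *S100a11*, *Anxa7*, *Anxa11* and 1 of 2 windows of *Dysf*. GGAATG, a TEAD motif, was in 12.6% of all windows and in that of *Anxa1*, which lies wholly within annotated GENCODE exon of the gene, and CAGCTG, an E-box, in 12.8% and in 1 of 2 windows of *Anxa4*. A match describes these letters and is no evidence of binding. The windows are of the reference strain, and the strains studied may differ from them.

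*Anxa1*, *Anxa2*, *S100a10* and *S100a11* were the members past the fold in both disease comparisons. Where either library of a pair had to reach 10 CPM, as 9 members did, 4 members were at least 2-fold higher in *mdx* than in B10 and 0 at least 2-fold lower. Among all 8473 genes at that minimum, 4.65% were at least 2-fold higher and 5.19% at least 2-fold lower. For D2-*mdx* over DBA the members again gave 4 higher and 0 lower, against 5.81% and 5.81% of 8500 genes. The median log2 ratio of the 9 members was 0.53 in the first comparison, beside -0.034 over all genes, and 0.42 in the second, beside -0.074. *Anxa1* lay above 98.2% of genes in *mdx* over B10 and above 98.3% in D2-*mdx* over DBA.

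**Figure D2:**
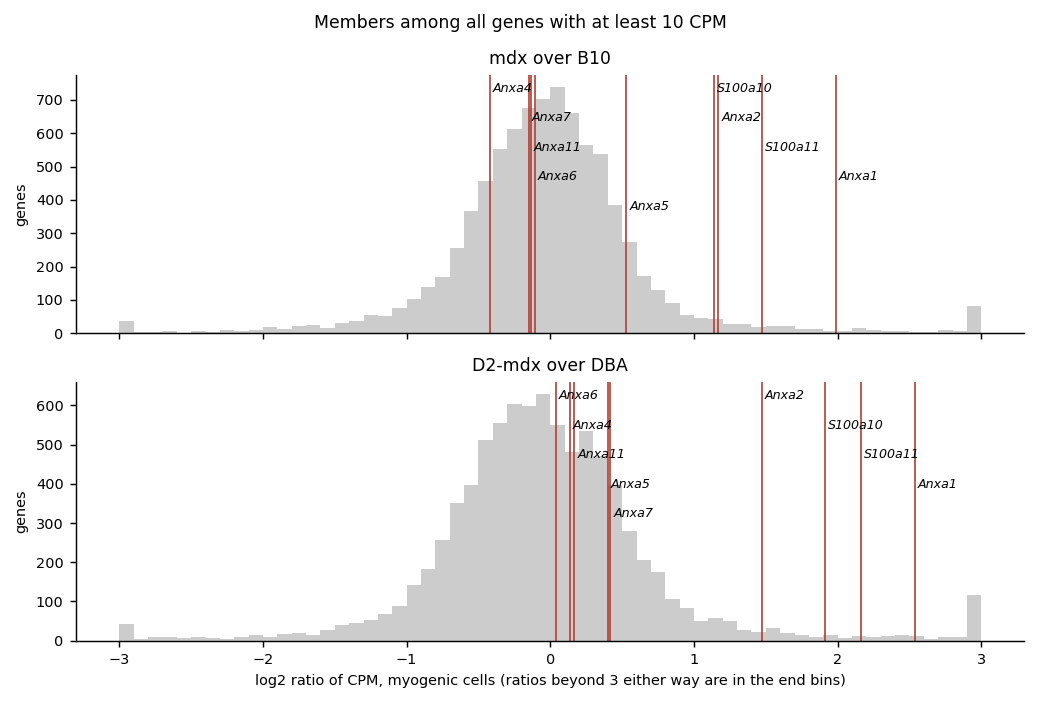
Number of genes (vertical axes) by log2 ratio of CPM in myogenic cells (horizontal axis), *mdx* over B10 above and D2-*mdx* over DBA below, with red lines at the 9 members of at least 10 CPM. *S100a10*, *Anxa2*, *S100a11* and *Anxa1* lie in the right tail beyond 1 in both comparisons, and the other 5 members lie within the bulk.

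The shares of the myogenic classes differed between libraries in the direction of these genes. MuSC-like cells were 89.9% of B10, 62.7% of *mdx*, 90.6% of DBA and 65.1% of D2-*mdx* myogenic cells. DMD-enriched-like and cycling progenitor-like cells, the classes with the highest mean levels of the 4 genes, made up larger shares of the dystrophic libraries. The former were 22.4% of *mdx* against 3.37% of B10 and 17.8% of D2-*mdx* against 3.96% of DBA, and the latter 7.27% against 2.24% and 10.7% against 2.52%. Setting each class to its mean share of UMIs over the 4 libraries (which uses 13 immunomyoblast-like cells of DBA) lowered the log2 ratio of *Anxa1* to 1.66 in *mdx* over B10 and 2.09 in D2-*mdx* over DBA. *Anxa2* then stood at 0.89 and 1.10, *S100a10* at 0.82 and 1.33, and *S100a11* at 1.07 and 1.67. At equal shares 2 of the 4 genes were past 2-fold higher in *mdx* over B10 and 4 of 4 in D2-*mdx* over DBA. Of all genes, 3.4% were higher and 3.55% lower in the first comparison, and 3.74% and 3.62% in the second. The 4 genes were picked for being past 2-fold in these same comparisons. Their counts are thus not comparable with the shares of all genes.

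Within MuSC-like cells the ratios of the 4 genes were smaller and kept their sign. Markers of other myogenic classes differed inside these cells too. In CPM, 6 DMD-enriched markers summed to 688 in *mdx* against 327 in B10 and 540 in D2-*mdx* against 293 in DBA. In the same order 6 cycling markers gave 15.1 against 7.26 and 22.1 against 3.85, and 6 differentiating markers 11.9 against 1.84 and 22.3 against 0.868. Their part in the ratios was not tested. *Anxa1* was at 229.7 in *mdx* against 65.4 in B10 and 243 in D2-*mdx* against 56.4 in DBA in CPM, with log2 ratios of 1.81 (1.74 to 1.89) and 2.11 (2.02 to 2.19). It was the 1 member past 2-fold in *mdx* over B10 in these cells, where 2.8% of all genes were at least 2-fold higher and 3.31% lower. *S100a11* was at 214 in *mdx* against 127 in B10 and 212 in D2-*mdx* against 83.6 in DBA in CPM, with log2 ratios of 0.76 (0.69 to 0.82) and 1.34 (1.27 to 1.42). *Anxa2* had ratios of 0.82 (0.77 to 0.86) and 0.99 (0.94 to 1.03). *S100a10* had ratios of 0.69 (0.65 to 0.73) and 1.00 (0.95 to 1.05), the latter on the 2-fold line. In MuSC-like cells of D2-*mdx* over DBA, 3 members were past 2-fold higher, beside 3.5% of all genes higher and 3.51% lower.

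**Figure D3:**
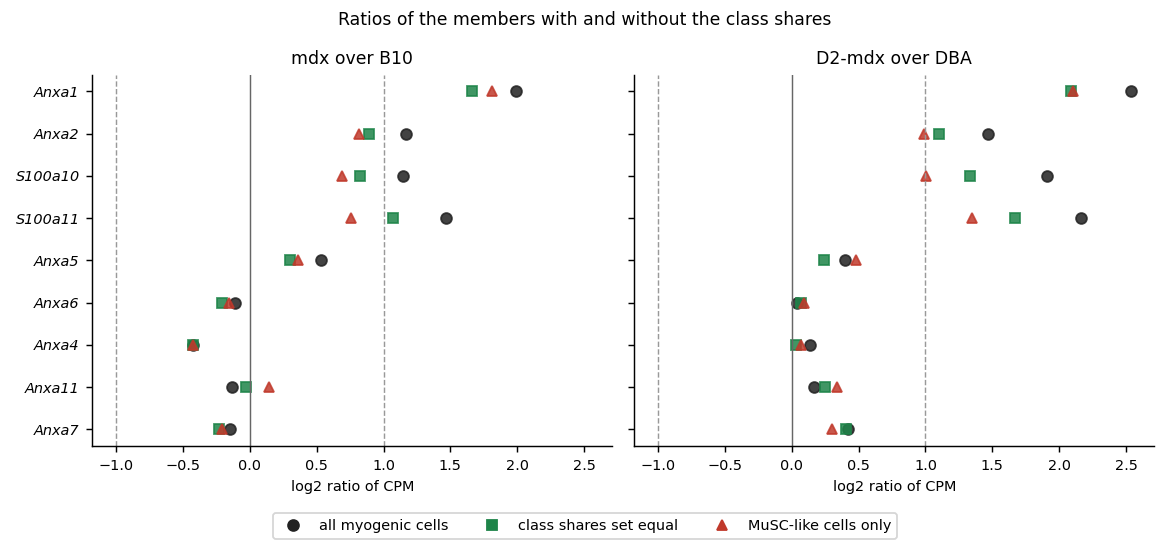
Log2 ratio of CPM (horizontal axes) of 9 members, with *mdx* over B10 in 1 panel and D2-*mdx* over DBA in the other, in all myogenic cells (circles), with the class shares of all libraries set to 1 mean (squares) and in MuSC-like cells alone (triangles), with dashed lines at 2-fold. The 4 members beyond 2-fold move towards 0 in the latter 2 measures and stay above 0.

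Cluster by cluster, *Anxa1*, *Anxa2*, *S100a10* and *S100a11* were each higher in *mdx* than in B10 in 8 of 8 myogenic clusters. Each was higher in D2-*mdx* than in DBA in 7 of 7 clusters with at least 20 cells in both. Every counting interval lay above 0. These 4 genes were picked for being past 2-fold over the sum of these clusters, so agreement between clusters is partly built in. No share over all genes was computed for this pattern. Across clusters the log2 ratio of *Anxa1* ran from 0.88 to 2.78 in *mdx* over B10 and from 1.08 to 3.90 in D2-*mdx* over DBA. The highest was in cycling progenitor-like cells both times, and this held for the other 3 genes too. In these cells *Anxa1* stood at 437 in *mdx* against 63.8 in B10 and 663 in D2-*mdx* against 44.4 in DBA in CPM. *S100a10* stood there at 1567 in *mdx* against 412 in B10 and 1678 in D2-*mdx* against 293 in DBA, and *Anxa2* at 969.6 in *mdx* against 260.3 in B10 and 1441 in D2-*mdx* against 320.2 in DBA. In the 2 controls cycling cells were no higher than MuSC-like cells in *Anxa1* (65.4 and 56.4 CPM), whereas in the dystrophic libraries they were the highest of the myogenic clusters. B10 and DBA had 99 and 68 cycling progenitor-like cells, *mdx* and D2-*mdx* 350 and 447. Without integration of the libraries the class held 12 and 31 cells in the controls, and 329 and 479 in *mdx* and D2-*mdx*. Which control cells it holds thus depends on the processing. Its ratios may compare unlike cells, which was not tested.

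The DMD-enriched-like cluster had the highest myogenic level of *Anxa1* in both controls, 171 CPM in B10 and 145 in DBA, over 149 and 107 cells. The dystrophic libraries reached 315 and 355 CPM there. *S100a11* was at 561 in *mdx* against 234 in B10 and 609 in D2-*mdx* against 182 in DBA in CPM in this cluster, and averaged 397 CPM over libraries against 159 in MuSC-like cells. By mean over libraries, 5 members were highest in this class of 5 myogenic classes: *Anxa2*, *Anxa5*, *Anxa6*, *Anxa7* and *S100a11*. The share of all genes that are highest in this class was not computed, so the number describes these members only. *Anxa7* was there at 51.5 CPM in B10 and 29.2 in *mdx*, where cycling progenitor-like cells were at 47.7. For *Anxa2* the next class, cycling progenitor-like, was nearly equal, at 748 against 753 CPM. The count of members highest in this class was 1, *Anxa6*, when the members were left out of the clustering genes and 4 myogenic classes formed. Differentiating myocyte-like cells were low in the 4 genes, with *Anxa2* at 244 in *mdx* against 167 in B10 and 367 in D2-*mdx* against 215 in DBA in CPM.

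*Anxa5* (chr3:36448923-36475894, minus strand) encodes the annexin used as a probe for exposed phosphatidylserine. It stood at 645 CPM (637 to 653) in *mdx* against 447 CPM (441 to 454) in B10, and at 784 CPM (775 to 794) in D2-*mdx* against 594 CPM (585 to 603) in DBA. Dystrophic libraries were above their own controls, with ratios of 0.53 (0.50 to 0.56) and 0.40 (0.37 to 0.43), below 2-fold, and DBA was close to *mdx*. The ratio was not of 1 sign in all clusters. In the DMD-enriched-like cluster *Anxa5* was at 771 in *mdx* against 737 in B10 and 904 in D2-*mdx* against 1040.3 in DBA in CPM, where DBA was the highest.

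*Anxa6* (chr11:54979108-55033445, minus strand) had larger ratios between backgrounds than between disease and control. It stood at 189 CPM (184 to 193) in *mdx* against 203 CPM (199 to 208) in B10, and at 239 CPM (234 to 244) in D2-*mdx* against 233 CPM (228 to 238) in DBA. Both libraries with DBA background were above both with B10 background, and no interval crossed between the backgrounds. Its log2 ratio of *mdx* over B10 was -0.11 (-0.15 to -0.064), and that of D2-*mdx* over DBA was 0.037 (-0.0088 to 0.083), an interval that includes 0. It was 0.34 (0.30 to 0.39) for D2-*mdx* over *mdx*, positive with its interval above 0 in 8 of 8 myogenic clusters, and 0.20 (0.15 to 0.24) for DBA over B10, above 0 in 4 of 7 clusters with their intervals. In MuSC-like cells it was at 179 in *mdx* against 199.9 in B10 and 248 in D2-*mdx* against 233 in DBA in CPM. None of these ratios reached 2-fold, and reads of DBA mice were aligned to the mm10 reference, which is of another strain, so a difference in mapping cannot be told apart from one in level. *Anxa6* lay above 80.1% of 8344 genes in DBA over B10 and above 89.3% of 8176 in D2-*mdx* over *mdx*. Of the members at 10 CPM, all others except *Anxa2*, at 0.17, were further from 0 in DBA over B10. How many of all genes had no interval crossing between the backgrounds was not computed.

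*Anxa4* (chr6:86736840-86793584, minus strand), *Anxa7* (chr14:20455260-20480133, minus strand) and *Anxa11* (chr14:25842156-25886804, plus strand), the last 2 with long amino-terminal tails, were highest in B10. *Anxa4* stood at 78.7 CPM (76.0 to 81.5) in *mdx* against 105 CPM (102 to 109) in B10, and at 74.8 CPM (72.0 to 77.8) in D2-*mdx* against 68.1 CPM (65.2 to 71.1) in DBA. B10 was above the other 3 libraries, which lay within 68.1 to 78.7 CPM. *Anxa7* stood at 29.8 in *mdx* against 33.0 in B10 and 31.2 in D2-*mdx* against 23.4 in DBA in CPM, with DBA the lowest. *Anxa11* stood at 93.1 in *mdx* against 102 in B10 and 86.6 in D2-*mdx* against 77.1 in DBA in CPM, DBA again the lowest. In cycling progenitor-like cells *Anxa7* was at 47.7 in *mdx* against 28.7 in B10 and 40.1 in D2-*mdx* against 9.45 in DBA in CPM. That was its widest difference of any cluster in D2-*mdx* over DBA, and the DBA value rests on few UMIs over 68 cells. For *mdx* over B10 the log2 ratios of the 3 genes in all myogenic cells were -0.42 (-0.49 to -0.36), -0.15 (-0.26 to -0.034) and -0.13 (-0.20 to -0.070). For D2-*mdx* over DBA they were 0.14 (0.052 to 0.22), 0.42 (0.28 to 0.56) and 0.17 (0.090 to 0.25). Over all myogenic cells the signs were opposite in the 2 backgrounds for all 3, at sizes below 2-fold, and no test of that difference was possible. How many of all genes had opposite signs was not computed. *Anxa11* in *mdx* over B10 was at 0.14 in MuSC-like cells, and *Anxa7* at 0.20 with non-myogenic cells included, both then of the same sign as in D2-*mdx* over DBA. *Anxa4* in D2-*mdx* over DBA was near 0 at equal class shares, at 0.029, and in MuSC-like cells, at 0.069. It was higher there in 4 of 7 clusters, 2 of them with the interval above 0. In *mdx* over B10 *Anxa4* had -0.43 by both measures.

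*Dysf* (chr6:84008590-84211060, plus strand), the dysferlin gene, was close to undetected in myogenic cells. Its UMIs numbered 15 in *mdx* against 1 in B10 and 13 in D2-*mdx* against 2 in DBA, or 0.372, 0.0251, 0.373 and 0.0664 CPM. At 3 counts per library, the floor used here, the level would be 0.0744 to 0.0996 CPM. No differentiating myocyte-like cell of any library had a UMI, where 3 counts would be 0.790 CPM in *mdx* and 1.13 in D2-*mdx*. In B10 and DBA this class held fewer UMIs, 1108587 and 999882, beside 3797247 in *mdx* and 2647934 in D2-*mdx*. The level of 3 counts is thus higher in the controls. Endothelial-like cells were at 99.7 CPM (87.0 to 114) in *mdx* and 95.6 CPM (75.2 to 119.9) in D2-*mdx*. Schwann-like cells were at 33.5 and 31.1 CPM, vascular smooth muscle-like cells of *mdx* at 14.9, and pericyte-like cells at 6.55 to 8.88 CPM over the 4 libraries. White blood cell-like and fibroblast or tenocyte-like cells had 0 UMIs, where 3 counts would be 9.48 and 9.19 CPM in their shallowest library.

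Markers of non-myogenic types were also counted in the myogenic cells. Their sums ranged over the libraries at 26.7 to 67.2 CPM for 7 pericyte markers, 3.36 to 14.5 CPM for 7 endothelial, 5.24 to 14.8 CPM for 6 glial, 168 to 232 CPM for 6 Schwann and 222 to 546 CPM for 6 vascular smooth muscle markers. The 6 white blood cell markers summed to 0.752 to 38.4 CPM and the 7 of fibroblasts or tenocytes to 3.66 to 61.5 CPM, both highest in D2-*mdx* and lowest in B10. Markers at 0 were *Ptprc* in B10, *Rergl* in B10 and DBA, and *Gfap* in DBA. Of the 7 types, each of which held its own markers above all other cells for all of its list, or 6 of 7 for pericyte-like cells, no marker sum exceeded 1.70% of its level in its own type. Each type's own level of a gene, taken at its percentage and summed over the 7 types, came to 4.64 to 12.6 CPM of *Anxa1*, 5.90 to 14.5 CPM of *Anxa2*, 3.89 to 11.9 CPM of *S100a10* and 7.999 to 22.0 CPM of *S100a11* over the libraries. For *Dysf* the sums were 0.289, 0.513, 0.316 and 0.580 CPM in B10, *mdx*, DBA and D2-*mdx* in turn, against the 0.0251 to 0.373 CPM counted. These sums take every marker UMI of a myogenic cell as carried over, and carry-over itself was not tested. The 6 mature fibre markers summed to 23.6 to 156 CPM and 4 haemoglobin genes to 275 to 927 CPM, both highest in D2-*mdx*, and their part in the results was not tested.

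Outside the myogenic cells the 4 genes differed in where they were high. Pericyte-like cells, present in all 4 libraries, were high in *Anxa1* (632 to 915 CPM) and *S100a11* (902 to 1170.3 CPM) and lower than dystrophic myogenic cells in *S100a10* (139 to 275 CPM). Disease ratios were small there: *Anxa1* had 0.21 (0.10 to 0.31) in *mdx* over B10 and -0.12 (-0.18 to -0.055) in D2-*mdx* over DBA, and *S100a11* 0.021 (-0.068 to 0.11) and 0.074 (0.022 to 0.13). *Anxa2* was higher in both dystrophic libraries in pericyte-like cells too, with 0.73 (0.54 to 0.93) and 0.60 (0.51 to 0.70). *S100a10* was there highest of the 4 libraries in *mdx*, at 275 CPM, and lowest in D2-*mdx*, at 139 CPM. It was thus above its control in *mdx* and below its control in D2-*mdx*. Endothelial-like cells reversed the pattern of *Anxa1* and *S100a10*. There *Anxa1* was at 29.1 CPM in *mdx* and 80.3 in D2-*mdx*, the lowest class of each, and *S100a10* at 838 and 712. *S100a11* did not follow *Anxa1* there, at 576 CPM in *mdx* and 548 in D2-*mdx*. Vascular smooth muscle-like cells of *mdx* had *S100a11* at 701 CPM and *Anxa1* at 136. Glial-like cells, with 23 and 31 cells in B10 and DBA, had *Anxa2* ratios of 0.90 (0.52 to 1.30) and 1.07 (0.82 to 1.33) and *S100a10* ratios of 1.08 (0.70 to 1.48) and 1.32 (1.02 to 1.63). White blood cell-like cells were at 231, 196 and 669 CPM of *Anxa1* in *mdx*, DBA and D2-*mdx*. *Anxa6* was lower in endothelial-like cells (90.5 to 94.3 CPM) than in MuSC-like cells (179 to 248 CPM), and *Anxa7* was highest in endothelial-like cells of *mdx*, at 121 CPM.

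Within the *mdx* library, which held all 15 clusters and types with at least 20 cells, *Anxa1* ran from pericyte-like at 915 CPM through cycling progenitor-like, fibroblast or tenocyte-like and DMD-enriched-like cells down to endothelial-like cells. Cycling and fibroblast or tenocyte-like cells had overlapping intervals, as did the 9 steps from MuSC-like cluster 5 to vascular smooth muscle-like cells. *Anxa2* and *S100a10* shared the same top 3, cycling progenitor-like, DMD-enriched-like and endothelial-like cells, with intervals apart at each step. *S100a11* was led by pericyte-like cells, apart from vascular smooth muscle-like cells at 701 CPM. *Dysf* was led by endothelial-like cells, apart from Schwann-like cells. The first 6 positions of *Anxa4*, *Anxa5*, *Anxa6* and *Anxa11* overlapped with their neighbours.

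**Figure D4:**
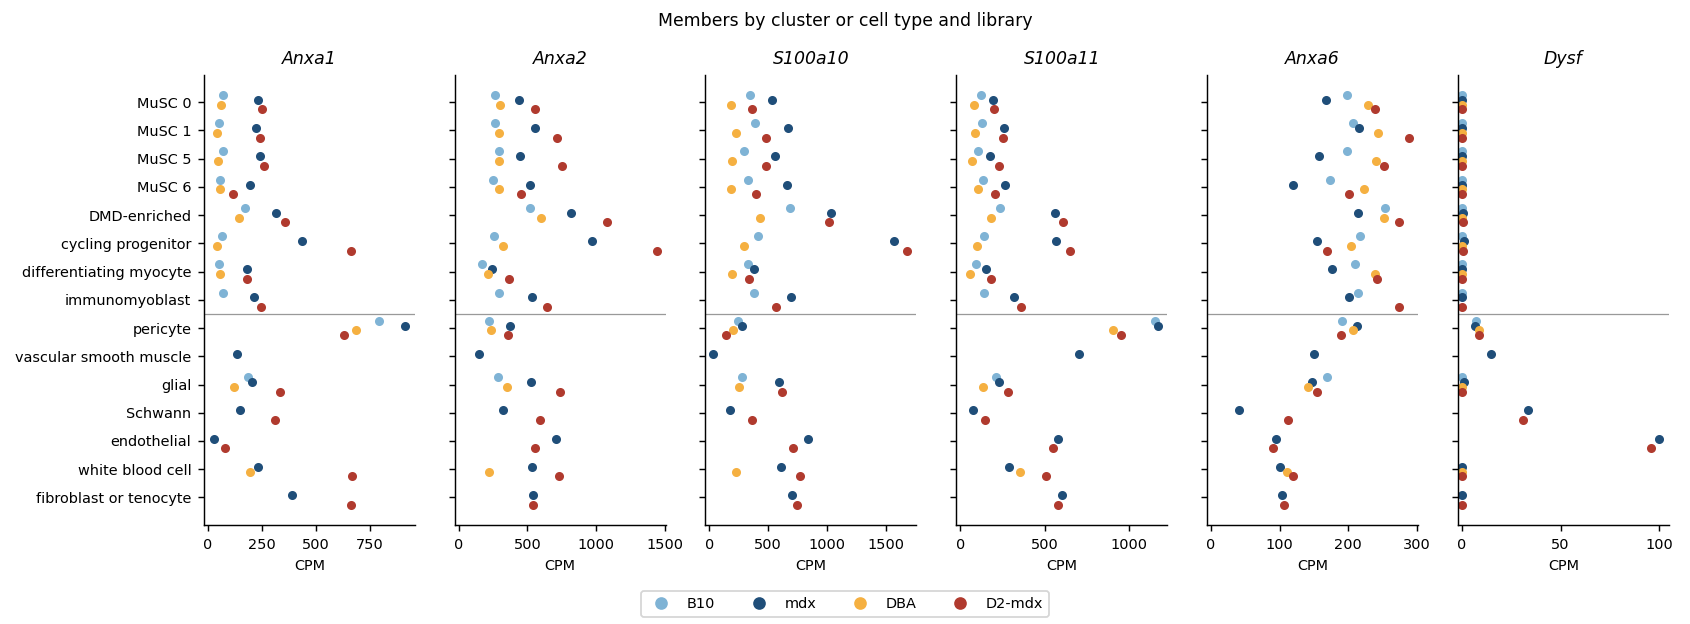
CPM (horizontal axes, 1 scale per gene) of 6 members in each myogenic cluster (above the line) and non-myogenic type (below it) with at least 20 cells, 1 point per library. Dystrophic libraries lie to the right of controls for *Anxa1*, *Anxa2*, *S100a10* and *S100a11* in the myogenic clusters, *Anxa1* and *S100a11* are highest in pericyte-like cells except for *Anxa1* in D2-*mdx*, and *Dysf* is above 90 CPM in endothelial-like cells alone.

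At equal depth a larger share of dystrophic than of control cells had a UMI of these genes. With every cell drawn down at random to 3000 UMIs (39 shallower myogenic cells of B10 were dropped), *Anxa1* was found in 15.0% (14.0 to 16.1) of B10, 46.3% (44.9 to 47.7) of *mdx*, 14.9% (13.5 to 16.2) of DBA and 50.4% (48.9 to 51.9) of D2-*mdx* myogenic cells. In endothelial-like cells, the class lowest in *Anxa1*, it was found in 8.73% (5.55 to 12.9) of *mdx* and 18.0% (10.6 to 27.5) of D2-*mdx* cells, whose median depths were 7481 and 7687 UMIs beside 5529 and 5517 in MuSC-like cells. Unthinned, the myogenic shares were 31.2, 69.6, 37.3 and 73.8%. *Anxa2* was found in 51.9, 70.7, 55.1 and 79.8% of thinned cells, *S100a10* in 61.1, 77.7, 42.3 and 69.5%, and *S100a11* in 31.8, 49.8, 20.9 and 52.2%, in the same order of libraries. With *Anxa5*, 5 members were found in a larger share of cells in each dystrophic library than in its control, with intervals apart. Other genes were not thinned, so no such count over all genes stands beside it. The shares of the myogenic classes, which differ between libraries, enter these values. *Anxa6* was found in 44.99, 40.9, 49.8 and 51.4%.

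Over all myogenic cells no member reached 2-fold between backgrounds. D2-*mdx* over *mdx* had 0 members past 2-fold in either direction, beside 1.99% of 8176 genes higher and 1.55% lower. *Anxa2* had a log2 ratio of 0.47 (0.45 to 0.50), *Anxa1* of 0.34 (0.30 to 0.38) and *Anxa5* of 0.28 (0.26 to 0.31), while *S100a10* had -0.038 (-0.061 to -0.015). In MuSC-like cells *S100a10* was lower in D2-*mdx*, with -0.53 (-0.57 to -0.48), and *Anxa1* had 0.080 (0.017 to 0.14). DBA over B10 also had 0 members past 2-fold, beside 1.76% of 8344 genes higher and 1.79% lower. Here *S100a10* had -0.81 (-0.85 to -0.77), *Anxa4* -0.63 (-0.71 to -0.55), *S100a11* -0.58 (-0.65 to -0.51) and *Anxa7* -0.50 (-0.63 to -0.37), all lower in DBA, and *Anxa5* 0.41 (0.38 to 0.44). *S100a10* and *S100a11* were lower in DBA in 7 of 7 clusters with their intervals below 0. Both were lower over the sum of these clusters, so agreement between clusters is partly built in. No share over all genes was computed for it. Single myogenic clusters passed 2-fold for 3 members, all lower in DBA than in B10: *Anxa7* in cycling progenitor-like cells at -1.60 (-2.77 to -0.58), and *Anxa4* at -1.09 (-1.59 to -0.60) and *Anxa11* at -1.04 (-1.58 to -0.51) in differentiating myocyte-like cells. The share of all genes past 2-fold in these clusters was not computed. Cycling progenitor-like cells numbered 68 in DBA and 99 in B10, and differentiating myocyte-like cells 66 and 79. For every member, a difference in mapping of DBA reads to mm10 and one in level cannot be told apart. The 4 comparisons share libraries, so a low DBA value enters both D2-*mdx* over DBA and DBA over B10.

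In myogenic cells, 37 other genes of membrane repair and of the same families had at least 10 CPM in each disease comparison. In *mdx* over B10, 6 were past 2-fold higher and 0 lower, beside 4.65% and 5.19% of all genes, and in D2-*mdx* over DBA 8 and 0, beside 5.81% and 5.81%. Their median log2 ratios were 0.28 and 0.28, beside -0.034 and -0.074 over all genes, and the same shares and medians apply beside each smaller list that follows. Among ferlins, *Myof*, which encodes myoferlin, the myoblast relative of dysferlin, stood at 67.3 CPM in *mdx* against 10.2 in B10 and 51.5 in D2-*mdx* against 2.62 in DBA. Its log2 ratio was 2.72 (2.57 to 2.87) and 4.30 (3.97 to 4.64), and in MuSC-like cells the levels were 43.1 against 10.1 and 24.6 against 2.34 CPM. No other ferlin of the 5 listed reached 10 CPM in myogenic cells, nor, in these cells, did any of 5 other annexins (*Anxa3*, *Anxa8*, *Anxa9*, *Anxa10*, *Anxa13*) or either listed annexin A1 receptor gene, *Fpr1* and *Fpr2*. Outside them *Anxa3* averaged 279.9 CPM in endothelial-like and 183 in pericyte-like cells, and *Fpr2* 23.3 in white blood cell-like cells.

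Of 12 other S100 genes, 5 reached 10 CPM in myogenic cells, of which 2 were past 2-fold higher in each disease comparison, *S100a4* and *S100a6*. *S100a4*, a binding partner of non-muscle myosin, stood at 54.2, 236, 21.9 and 481 CPM in B10, *mdx*, DBA and D2-*mdx*, a ratio of 4.45 (4.34 to 4.57) for D2-*mdx* over DBA. The scaffold and caveola list of 11 genes, 9 of them at 10 CPM, had 2 past 2-fold higher in *mdx* over B10, *Murc* and *Ehd4*, and 3 in D2-*mdx* over DBA, where *Ehd1* joined them. *Murc*, the muscle cavin gene, had 1 UMI in B10 and 494 in *mdx*, a log2 ratio of 8.93 (6.45 to 14.24) that rests on 1 UMI, and 7 UMIs in DBA against 958 in D2-*mdx*, a ratio of 6.89 (5.84 to 8.21). It was mostly in cycling progenitor-like cells, at 60.1 and 108 CPM in the dystrophic libraries and 0 and 0.945 in B10 and DBA. *Trim72*, whose product MG53 nucleates repair patches in fibres, had 2 UMIs in *mdx* against 1 in B10 and 7 in D2-*mdx* against 0 in DBA.

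In the vesicle fusion and scramblase list, 1 of 8 genes was past 2-fold higher in each disease comparison, *Ano5*, a gene of the anoctamin family that is mutated in a limb-girdle muscular dystrophy. It stood at 27.6 CPM in *mdx* against 6.17 in B10 and 15.96 in D2-*mdx* against 1.89 in DBA, and was highest in DMD-enriched-like cells. The lowest ratios among the repair genes in *mdx* over B10 were those of *Vamp2* at -0.86 (-0.94 to -0.77), *Stx4a* at -0.48 (-0.56 to -0.41) and *Chmp3* at -0.37 (-0.45 to -0.30), the first 2 of vesicle fusion. In D2-*mdx* over DBA they were *Vamp2* at -0.66 (-0.76 to -0.57), *Vps4b* at -0.56 (-0.65 to -0.47) and *Stx4a* at -0.25 (-0.33 to -0.17). Of 10 ESCRT genes, which shed damaged membrane, 0 passed 2-fold in either comparison, with medians of 0.0073 and 0.11. Of 4 calpain and calpastatin genes at 10 CPM, 0 passed in *mdx* over B10 and 1 in D2-*mdx* over DBA, *Capn1*, at 1.19 (0.95 to 1.44). The 14 immediate-early and dissociation genes, which move with tissue handling, had median log2 ratios of -0.27 and -0.24, with 3 past 2-fold lower in *mdx* over B10 and 1 higher and 1 lower in D2-*mdx* over DBA, and their part in the results was not tested.

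Over the 31 sums of a myogenic cluster in a library with at least 20 cells, *Anxa1*, *Anxa2*, *S100a10* and *S100a11* varied together, with Pearson correlations of log2(CPM + 1) of 0.83 to 0.95 over their 6 pairs. The lowest of the 6 was that of *Anxa2* and *S100a10* and the highest that of *S100a10* and *S100a11*. The 31 points share 4 libraries and are not independent. These 4 genes were picked for being past 2-fold in both disease comparisons of the same libraries, so high correlations are partly built in. Other genes past 2-fold were not correlated in this way. With the non-myogenic types added, 49 sums, *Anxa2* and *S100a10* kept 0.82 and *Anxa1* and *S100a11* 0.74, while *Anxa1* and *S100a10* had 0.29 and *S100a10* and *S100a11* 0.27. Among 8843 genes with a mean of at least 10 CPM, those most like *Anxa2* over the 49 sums were *S100a10* (r = 0.82), *Tspo* (r = 0.77), *Baiap2* (r = 0.75), and those most like *S100a10* were *Anxa2* (r = 0.82), *Arf5* (r = 0.82), *Nras* (r = 0.80). The profile of *Anxa1* was most like *Vmp1* (r = 0.81), *Adamts2* (r = 0.80), *Myof* (r = 0.79), and that of *S100a11* like *Ecm1* (r = 0.88), *Cnn2* (r = 0.87), *Pdlim1* (r = 0.86). *Anxa6* was most like *Vstm4* (r = 0.84), *Nol3* (r = 0.83), *Sytl2* (r = 0.83). *Anxa5* was most like *Anxa2* (r = 0.68), *Tmem167* (r = 0.67), *Ebp* (r = 0.67), *Anxa4* like *Atp7a* (r = 0.66), *Tmsb10* (r = 0.63), *Klf10* (r = 0.63), *Anxa7* like *Tns1* (r = 0.80), *Sri* (r = 0.77), *Cxcl12* (r = 0.77) and *Anxa11* like *Atp2b4* (r = 0.67), *Actn4* (r = 0.66), *Gpc4* (r = 0.66). *Dysf*, itself under the mean of 10 CPM, was most like *Cav2* (r = 0.93), *Ptprb* (r = 0.87), *Rasal2* (r = 0.83).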

How the data were processed

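Per the labels and the study's methods, the authors used Cell Ranger 3.0.1 and the mm10 genome, and the deposited values are raw UMI counts per gene and barcode. The annotation release is not given in the sources used here. Deposited barcodes numbered 3539 to 9931 per library. Before doublets were removed, the filter below left 4762 of 9931 in B10 and 6669 of 7173 in *mdx*. It left 3370 of 3539 in DBA and 6049 of 6782 in D2-*mdx*, so B10 lost the most. The filter kept cells of 1000 to 5000 genes whose mitochondrial share was 8% or less, and doublets were removed by Scrublet score (scanpy 1.11.5) at 0.008 per 1000 cells (2.7 to 5.338% of cells). Libraries were integrated with Seurat 5.3.0 anchors (2000 features, 30 dimensions) and clustered at resolution 0.1, and myogenic cells again at 0.2. After clustering, 6 cells with at least 1% of UMIs from mature fibre genes were set aside, a limit chosen after seeing the data. UMIs were summed per library and class with at least 20 cells. CPM has exact Poisson intervals and log2 ratios exact binomial (Clopper-Pearson) intervals. No test was run, since cells are not replicates. Past 2-fold means a ratio of 2 or more where either library of the pair reached 10 CPM. Alternatives used edgeR 4.0.16 and DESeq2 1.42.0 size factors. Ratios and intervals were computed on simulated counts with counting error only, which hold no spread between animals or libraries and so cannot test for it. Named genes are the 10 members, *Dmd*, the 3 highest and 3 lowest list genes per disease comparison, the 3 most alike genes per member and leading or marker genes; *Hbb-bs*, *Itga7*, *Vcam1*, *S100a6*, *Ehd1*, *Ehd4*, *Capn1*, *Trim72* and the low family genes were named after their values were seen. Members and lists were chosen with earlier results of these data known.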

Additional observations from a re-analysis of the deposited data

Results flagged for a closer look

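Over all myogenic cells *Anxa4*, *Anxa7* and *Anxa11* had log2 ratios of opposite sign in the 2 backgrounds, with both counting intervals away from 0. In MuSC-like cells *Anxa6* and *Anxa7* met this rule, and *Anxa4* and *Anxa11* did not. *Anxa6* did not meet it over all myogenic cells. With 1 library per strain the difference between the backgrounds was not tested, and counting intervals leave out the spread between animals. How many of all genes meet the same rule was not computed, so the number describes these members only. In DBA over B10, the 2 controls of these ratios, *Anxa4*, *Anxa7* and *Anxa11* had -0.63, -0.50 and -0.41 over all myogenic cells. Over all myogenic cells *Anxa4* had -0.42 for *mdx* over B10 and 0.14 for D2-*mdx* over DBA. *Anxa7* had -0.15 and 0.42 in the same order, and *Anxa11* -0.13 and 0.17. In MuSC-like cells *Anxa6* had -0.16 and 0.094, *Anxa7* -0.21 and 0.30, and *Anxa4* -0.43 and 0.069. In MuSC-like cells *Anxa11* was positive in both comparisons, 0.14 and 0.34. With non-myogenic cells included *Anxa7* was positive in *mdx* over B10, at 0.20. All of these ratios are below 2-fold.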

How the results depend on the processing

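The count of 4 members past 2-fold in *mdx* over B10 became 2 with the mean of depth-scaled counts over cells, which weights each cell equally, and 1 with MuSC-like cells only. With TMM or DESeq2 size factors, all cells, other gene, mitochondrial and doublet filters and other CPM minimums it was 4 or 5, and in D2-*mdx* over DBA it was 3 to 5 in every setting run. The counts of 5 included *Dysf*, close to undetected in myogenic cells, and arose with no CPM minimum. The counts of 0 between backgrounds were 0 in each setting. The other repair genes past 2-fold were 5 or 6 in *mdx* over B10 and 6 to 9 in D2-*mdx* over DBA with size factors or MuSC-like cells only, which were added after seeing the data. The count of 5 members highest in the DMD-enriched-like class became 3 at resolution 0.4 (*Anxa4*, *Anxa6* and *Anxa11*). It was 3 with doublets kept (*Anxa2*, *Anxa6* and *S100a11*) and 1 with members left out of the clustering features (*Anxa6*). Of the settings added after seeing the data, integration of embeddings gave 2 (*Anxa4* and *Anxa6*). Leaving out mature fibre cells before clustering gave 1 (*Anxa6*). Of the 5 members of the main setting, *Anxa6* alone was highest there in each of these settings. Without integration no such class formed, and no count was made. The cycling progenitor-like class then held 12 cells in B10 and 31 in DBA, where the main setting gave 99 and 68. The 5 members with larger shares of cells became 4 without thinning, and stayed 5 at 2000 and 5000 UMIs.

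Signs of the single log2 ratios of 9 members matched in 70 of 72 alternatives in *mdx* over B10, 70 of 72 in D2-*mdx* over DBA, 69 of 72 in D2-*mdx* over *mdx* and 69 of 72 in DBA over B10. With non-myogenic cells included, *Anxa1* and *S100a11* in DBA over B10 became 0.83 and 0.43, where pericyte-like cells are 483 in DBA and 98 in B10. *Anxa7* in *mdx* over B10 became 0.20 with all cells and *Anxa11* 0.14 in MuSC-like cells. *Anxa6* in D2-*mdx* over DBA became -0.047 with all cells and -0.16 with the wider gene filter. No paired analysis was possible because each strain has 1 library. Median log2 ratios over all genes moved by less than 0.1 between scalings. Counts of 1 library limit every ratio to these pools, and ratios over 1 to 3 UMIs have wide intervals.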
